A study of Mus musculus with 8 samples.

Results

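The genes described here are 10 genes of IGF and insulin receptor signalling: the ligands *Igf1* and *Igf2*, the receptors *Igf1r*, *Igf2r* and *Insr*, the adaptors *Irs1* and *Irs2*, and the binding proteins *Igfbp3*, *Igfbp5* and *Igfbp7*. They were chosen by name, as the 10 of 21154 named genes on the array whose probe accession maps to one of these symbols, and the rule uses no measured value. Together they have 16 probes. Gene expression was measured on 1-colour Agilent arrays in islets of 4 control mice, labelled CB1 WT and called β-CB1R+/+ here, and of 3 mice labelled CB1 KO and called β-CB1R-/- here. All were male C57BL/6 mice on standard diet, of an age that the labels do not give, and their islets were released with collagenase and picked by hand. By the study's methods, β-CB1R-/- mice were *Cnr1* flox/flox with the MIP-Cre/ERT transgene, whose insulin promoter drives Cre in beta cells, and β-CB1R+/+ littermates were *Cnr1* flox/flox without it. Both received tamoxifen, so the loss of *Cnr1* and the presence of the transgene cannot be told apart. The sample labels also name a global CB1 knockout line, while the series title and design name the beta cell specific one. β-CB1R-/- replicate 2 was run on 2 arrays, which were averaged, so 8 arrays gave 7 mice.

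Insulin-like growth factors bind the IGF-1 receptor, and insulin the insulin receptor. Both receptors are tyrosine kinases that pass their signal through the IRS adaptors to the PI3K-AKT and MAPK chains. IRS2 is known for its part in the growth and survival of beta cells. In tissue most IGF is held by binding proteins, which limit or prolong its access to the receptor until proteases cut them. The study measured *Igf1* and *Igf2* in islets beside the growth of beta cells in β-CB1R-/- mice. The arrays add the receptors, adaptors and binding proteins.

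Values are log2 intensities relative to the 75th percentile of their array, so a difference of 1 is a 2-fold change. They are compared between mice for 1 probe at a time, since probes differ in brightness for the same amount of RNA. Dim probes were set aside: of 55681 probes, 39162 stood well above background in 3 or more mice and entered the comparison, among them 15 of the 16 probes of these genes. Between 33304 and 39988 probes were well above background on each array. *Cnr1*, the deleted gene, was lower in every β-CB1R-/- mouse (-3.13 to -2.28) than in every β-CB1R+/+ mouse (-1.11 to -0.02), a difference of -1.97 (SE 0.33, limma adjusted p = 0.193). All arrays were on 1 slide, with the genotypes in different columns of it, so position on the slide and genotype cannot be told apart. The 7 samples are separate mice by their labels.

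None of the 15 compared probes passed an adjusted p of 0.05 between genotypes, where 43 of all 39162 probes (0.11%) did. At an unadjusted p of 0.05, 1 of the 15 passed, the probe of *Igfbp5*, against 1406 of all probes (3.59%). Taking the brightest probe of each gene, 6 of the 9 compared genes were higher and 3 were lower in β-CB1R-/- islets, with a median log2 difference of 0.05 beside -0.04 over all 16951 named genes compared.

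**Figure D1:**
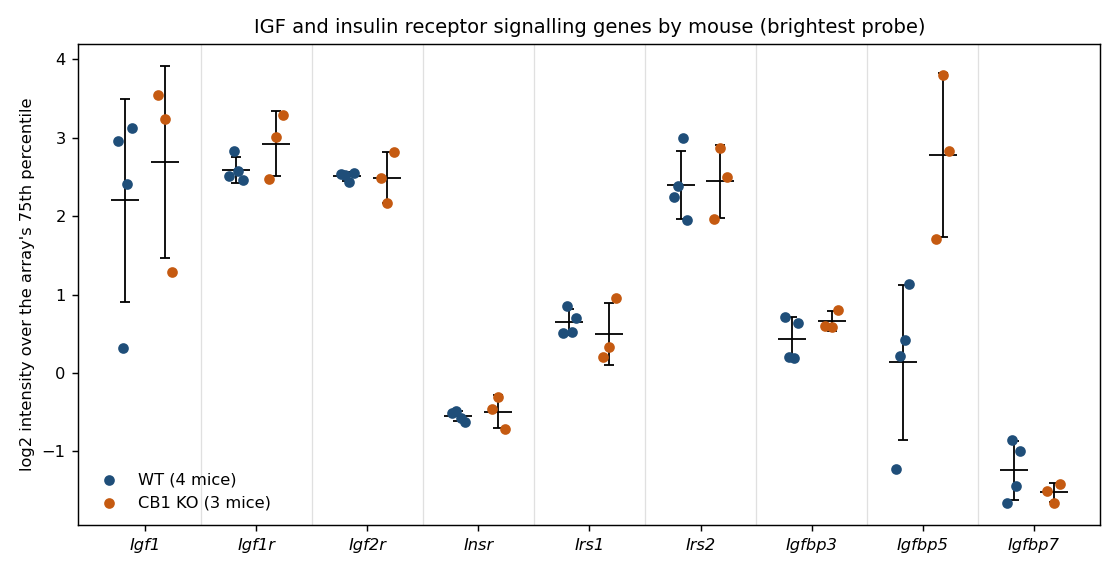
Each point is 1 mouse, blue for WT (β-CB1R+/+, 4 mice) and orange for CB1 KO (β-CB1R-/-, 3 mice), the short line is the mean and the bar the SD; the y axis is the log2 intensity over the array's 75th percentile, and heights are not comparable between genes. The orange and blue points overlap for every gene shown but *Igfbp5*, and the *Igf1* points spread over 3.23 log2 units.

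*Igf1* varied more between mice than between genotypes. Its brightest probe, A_55_P2031631, read 2.96, 0.31, 2.41 and 3.12 in β-CB1R+/+ replicates 1 to 4 and 3.54, 3.24 and 1.29 in β-CB1R-/- replicates 1 to 3. One mouse of each genotype was low, β-CB1R+/+ replicate 2 and β-CB1R-/- replicate 3, and the other 5 lay between 2.41 and 3.54. The highest mouse was 9.38-fold above the lowest. The pooled SD within genotypes was 1.27, above that of 98.3% of all probes compared, whose median was 0.39. The repeat arrays of β-CB1R-/- replicate 2 read 3.19 and 3.29.

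The means were 2.20 ± 1.29 (SD, n = 4) in β-CB1R+/+ and 2.69 ± 1.22 (SD, n = 3) in β-CB1R-/- islets, a log2 difference of 0.49 (SE 0.78) with a 95% interval from -1.32 to 2.30. The limma adjusted p was 0.999 and the exact permutation p over the 35 regroupings of the mice was 0.6 (two-sided, smallest possible 0.0286). The interval therefore holds large differences of either sign, and these arrays do not settle the direction of *Igf1*. The estimate depended on single mice. Without β-CB1R+/+ replicate 2 the difference was -0.14, and without β-CB1R-/- replicate 3 it was 1.19. Without β-CB1R-/- replicate 1, the highest mouse, it was 0.07, and without β-CB1R-/- replicate 2 it was 0.22. Leaving out β-CB1R+/+ replicate 1 gave 0.74, and leaving out β-CB1R+/+ replicate 4 gave 0.80.

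The other 3 *Igf1* probes gave the same picture. A_55_P2085984 read 2.64, 0.13, 2.11 and 2.79 in β-CB1R+/+ and 3.24, 2.84 and 1.00 in β-CB1R-/- mice. A_55_P2085974 read -1.34, -3.41, -1.27 and -0.24, then -0.11, -0.37 and -2.21. The dimmest, A_55_P2031636, was well above background in 4 of the 7 mice and read -2.87, -4.36, -2.94 and -2.89, then -2.40, -2.49 and -4.22. Every probe was lowest in β-CB1R+/+ replicate 2 among controls and in β-CB1R-/- replicate 3 among knockouts. Across the 7 mice the 4 probes correlated with each other at r = 0.925 to 0.999, and their differences between genotypes ran from 0.23 to 0.67.

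Of 14132 named genes well above background in all 7 mice, those whose pattern over the mice was most like that of *Igf1* were *Lamb3* (r = 0.997), *St6galnac2* (0.996), *Hsd17b13* (0.996), *Rnase1* (0.994) and *Col7a1* (0.994). These r are descriptions over 7 mice, ranked on the same values. *Rnase1* encodes the pancreatic ribonuclease of acinar cells, the enzyme-making cells that surround the islets. It read 9.46, 7.15, 9.02 and 9.35 in β-CB1R+/+ and 9.89, 9.52 and 7.84 in β-CB1R-/- mice, low in the same pair of mice as *Igf1*. In all, 615 genes (4.35%) correlated with *Igf1* at over 0.9, and 10 of the 14 listed acinar markers were among genes at that level, with a median r of 0.969 over the 14. *Ctrl*, a chymotrypsin-like protease, reached 0.987, and *Ptf1a*, the acinar transcription factor, 0.980. The 4 at 0.9 or below were *Bhlha15* (0.89996), *Cpb1* (0.890), *Ctrb1* (0.855) and *Cpa1*, a carboxypeptidase, at -0.01. Of the 7 duct markers 3 exceeded 0.9, and none of the 13 macrophage, 12 endothelial or 12 stellate and fibroblast markers did. The endothelial r ran from -0.678 to 0.899, just under that cut, with a median of 0.169.

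The relation to acinar and duct markers was computed after these genes had been seen. The mean level of the 14 acinar markers was 9.72, 8.44, 9.46 and 9.49 in β-CB1R+/+ and 9.93, 9.78 and 8.71 in β-CB1R-/- mice, so the mice lowest for *Igf1* were also lowest for the exocrine signal. *Igf1* followed it with Pearson's r = 0.978 (exact permutation p = 0.000992) and Spearman's rho = 0.964 (exact permutation p = 0.00278) over 7 mice. Over the family of 54 relations, 9 genes by 6 marker lists, the adjusted p were 0.0536 and 0.15. Without the 2 mice farthest from the median acinar level, which were the low ones, r was 0.798 over 5 mice. The duct marker level gave r = 0.969 (exact permutation p = 0.00198, adjusted 0.0536) and rho = 0.857 (exact permutation p = 0.0238, adjusted 0.321), and r = 0.779 without the 2 mice farthest from the median.

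With the acinar level as a covariate, the *Igf1* difference became 0.09 with an SE of 0.22 in place of 0.78, and its 95% interval narrowed to -0.44 to 0.63 (limma adjusted p = 0.967). The acinar level was taken up after it was seen to run with *Igf1* in these same mice, so a smaller SE was built in. The narrower interval describes these mice and is not a sharper estimate of the genotype difference. The acinar markers themselves did not separate the genotypes: 13 of 14 were higher in β-CB1R-/- islets by a median of 0.18 and none passed. In bulk tissue, fewer cells of a type and less RNA per cell cannot be told apart, and the part of exocrine tissue in the *Igf1* level was not tested further. The macrophage level, from -0.31 to 0.38 in β-CB1R+/+ and from 0.08 to 0.73 in β-CB1R-/- mice, had an r of -0.06 (exact permutation p = 0.891, adjusted 0.942) and a rho of 0.179 (exact permutation p = 0.713, adjusted 0.856) with *Igf1*, and r was 0.672 without the 2 mice farthest from the median. The stellate and fibroblast level had an r of 0.596 (exact permutation p = 0.162, adjusted 0.763) and a rho of 0.714 (exact permutation p = 0.0881, adjusted 0.595) with *Igf1*, and r was 0.278 without the 2 farthest mice. Taken as deviations from the genotype means, a description added after the data were seen, *Igf1* correlated at 0.977 with the acinar level, 0.573 with the stellate and fibroblast level and -0.25 with the macrophage level.

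**Figure D2:**
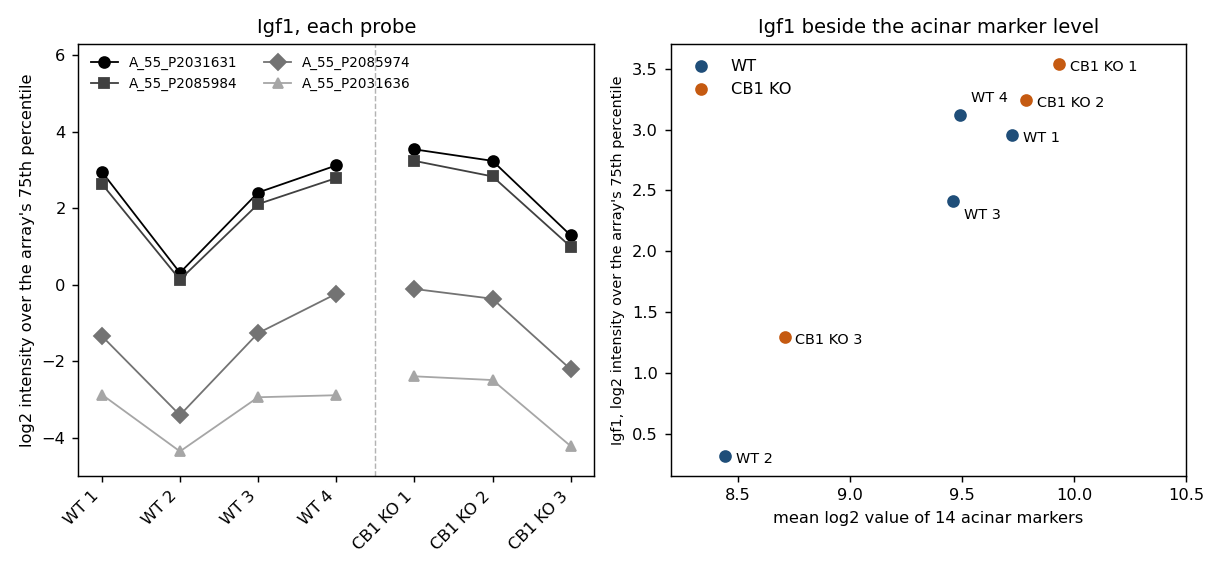
Left, the 4 *Igf1* probes in each mouse as log2 intensity over the array's 75th percentile, WT (β-CB1R+/+) before the dashed line and CB1 KO (β-CB1R-/-) after it; right, the brightest probe against the mean log2 value of the 14 acinar markers, 1 point a mouse. All 4 probes dip in WT 2 and CB1 KO 3, which are also the mice with the lowest acinar level (8.44 and 8.71).

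*Igf2*, the fetal growth factor of the family, had 1 probe, which stood well above background on none (0 of 8 arrays). It was therefore not compared, and its level in these islets is only bounded by the background of the array. The insulin genes, the other ligands of the system, were measured in every mouse. *Ins1* differed by -0.11 (SE 0.23) and *Ins2* by 0.07 (SE 0.26), with overlapping groups.

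Among the receptors, *Igf1r*, the tyrosine kinase that IGF-1 activates, read 2.51, 2.83, 2.58 and 2.45 in β-CB1R+/+ and 2.47, 3.00 and 3.29 in β-CB1R-/- mice. The groups overlapped through β-CB1R-/- replicate 1, whose value lay among the controls, while the other 2 knockouts were above every control. The difference was 0.33 (SE 0.24, 95% interval -0.22 to 0.88, exact permutation p = 0.229, limma adjusted p = 0.999). It was 0.82 under normexp background correction, 0.55 without β-CB1R-/- replicate 1 and 0.15 without β-CB1R-/- replicate 3. With the acinar level as a covariate it was 0.41 (SE 0.17, adjusted p = 0.884).

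*Igf2r*, the scavenger receptor that carries IGF-2 to lysosomes, was among the steadier genes. It read 2.53, 2.52, 2.43 and 2.55 in β-CB1R+/+ mice, an SD of 0.05, and 2.48, 2.17 and 2.81 in β-CB1R-/- mice, which lay on both sides of the controls. The difference was -0.02 (SE 0.21, 95% interval -0.49 to 0.46, exact permutation p = 0.857), and its sign turned with the normalisation.

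*Insr*, the insulin receptor, had 3 probes that did not follow each other over the mice (r from -0.66 to 0.38). The brightest, A_52_P494514, read -0.52, -0.48, -0.57 and -0.62 in β-CB1R+/+ and -0.46, -0.30 and -0.72 in β-CB1R-/- mice. The genotypes overlapped, and the difference was 0.05 (SE 0.18, 95% interval -0.37 to 0.48). The other probes gave 0.13 and -0.01. The brightest probe had a range of 0.42 over the 7 mice, and only 5.75% of all probes compared had a smaller one. The other *Insr* probes, in the same order, had ranges of 0.76 and 1.02, at percentiles 27.1 and 44.9 of all probes compared. *Insrr*, the orphan receptor related to *Insr*, differed by 0.47 (SE 0.69) and was low in β-CB1R+/+ replicate 2 alone, at 3.91 against 5.77 to 6.98 in the other mice.

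The adaptors gave no separation between genotypes. *Irs2* read 2.25, 2.39, 2.99 and 1.95 in β-CB1R+/+ and 1.96, 2.87 and 2.49 in β-CB1R-/- mice, the knockouts within the control range, with a difference of 0.05 (SE 0.32, 95% interval -0.68 to 0.77, exact permutation p = 0.857). *Irs1* read 0.51, 0.86, 0.52 and 0.70 with its brighter probe in β-CB1R+/+ and 0.21, 0.33 and 0.95 in β-CB1R-/- mice. Its highest mice were β-CB1R-/- replicate 3 and β-CB1R+/+ replicate 2, the mice lowest for *Igf1*. The difference was -0.15 (SE 0.24, 95% interval -0.69 to 0.40), and it was -0.0035 without β-CB1R-/- replicate 1 and -0.37 without β-CB1R-/- replicate 3.

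The brighter *Irs1* probe ran against the acinar level, with r = -0.902 (exact permutation p = 0.00456, adjusted 0.0821) and rho = -0.929 (exact permutation p = 0.00675, adjusted 0.182), and r = -0.876 without the 2 mice farthest from the median. The dimmer probe, A_52_P171212, did not share this pattern. It read -1.14, -1.58, -1.35 and -1.99 in β-CB1R+/+ and -1.52, -1.53 and -1.88 in β-CB1R-/- mice, and its r with the brighter probe was -0.52. The repeat arrays of β-CB1R-/- replicate 2 differed by 0.69 on the dimmer probe and by 0.12 on the brighter one, with a sign opposite to each other.

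*Igfbp5* was the member with the largest difference and the one whose genotypes did not overlap. The protein binds IGF-1 and IGF-2 in the extracellular matrix. It read -1.22, 0.22, 0.42 and 1.13 in β-CB1R+/+ mice and 1.71, 3.79 and 2.83 in β-CB1R-/- mice. The lowest knockout was above the highest control, as was true of 2.16% of all probes in this direction. The means were 0.14 ± 0.99 (SD, n = 4) and 2.78 ± 1.04 (SD, n = 3), a log2 difference of 2.64 (SE 0.63, 95% interval 1.18 to 4.10), or 6.24-fold. The exact permutation p was 0.0286, the smallest that 4 against 3 mice allow. After adjustment over all 39162 probes the limma p was 0.777, so *Igfbp5* did not pass the threshold.

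The repeat arrays of β-CB1R-/- replicate 2 read 3.78 and 3.81, and the difference stayed between 2.13 and 3.18 when each mouse was left out in turn. Over the alternatives the adjusted p ranged from 0.128, with the replicate number as a block, to 1.00, and passed 0.05 under none. The difference was 2.71 (SE 0.69) with the acinar level as a covariate, and *Igfbp5* had an r of 0.04 (exact permutation p = 0.926, adjusted 0.944) and a rho of 0.321 (exact permutation p = 0.498, adjusted 0.77) with that level. The gene with the pattern most like it, picked after its values were seen, was *Wnt5b* (r = 0.967), a secreted Wnt ligand, which differed by 0.82.

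Marker levels of other islet cells moved in part with *Igfbp5*. Its r with the macrophage level was 0.821 (exact permutation p = 0.0236, adjusted 0.319) and its rho 0.821 (exact permutation p = 0.0341, adjusted 0.369), and r was 0.696 without the 2 mice farthest from the median. The single macrophage markers did not all follow *Igfbp5*: their r with it ran from -0.501 to 0.884, with a median of 0.675. Of the 13 macrophage markers 10 were higher in β-CB1R-/- islets and none passed. *Lyz2*, lysozyme, differed by 0.97 (SE 0.44). *Mrc1*, the mannose receptor, read -4.97, -4.66, -4.58 and -1.78 in β-CB1R+/+ and -2.55, -2.06 and -2.31 in β-CB1R-/- mice. It was well above background in 4 of the 7 mice and was compared because of the knockouts, so its difference of 1.69 (SE 0.72) rests on control values near background. *Igfbp5* had an r of 0.506 (exact permutation p = 0.249, adjusted 0.763) and a rho of 0.714 (exact permutation p = 0.0881, adjusted 0.595) with stellate and fibroblast markers, which ran from -1.59 to 1.71 in β-CB1R+/+ and from -0.34 to 0.44 in β-CB1R-/- mice. Without the 2 mice farthest from the median this r was 0.911. With endothelial markers r was -0.01 (exact permutation p = 0.983, adjusted 0.983) and rho 0.036 (exact permutation p = 0.963, adjusted 1.00), and r was 0.794 without the 2 farthest mice. As deviations from the genotype means, *Igfbp5* correlated at 0.719 with the macrophage, 0.570 with the stellate and fibroblast and 0.273 with the endothelial level. The part of these cell types in the *Igfbp5* level was not tested.

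The genotypes overlapped for the other binding proteins among the members. *Igfbp3*, the main carrier of IGF in blood, read 0.72, 0.21, 0.19 and 0.64 in β-CB1R+/+ and 0.60, 0.58 and 0.81 in β-CB1R-/- mice, overlapping, with a difference of 0.22 (SE 0.21, 95% interval -0.27 to 0.72). *Igfbp7*, a low affinity binder found in vessel walls, read -1.66, -0.86, -1.44 and -0.99 in β-CB1R+/+ and -1.50, -1.65 and -1.41 in β-CB1R-/- mice. The 3 knockouts lay within the lower part of the control range. The difference was -0.28 (SE 0.24, 95% interval -0.85 to 0.28, exact permutation p = 0.343).

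The further binding proteins, their proteases and partners made a list of 12 genes, of which 10 were compared, with 7 higher, 3 lower, a median difference of 0.13 and none past the adjusted threshold. *Pappa2*, whose product is a protease that cuts IGFBP3 and IGFBP5, had the most negative difference of them. It read 4.73, 5.24, 4.78 and 4.50 in β-CB1R+/+ and 3.39, 2.60 and 3.73 in β-CB1R-/- mice, with no overlap, which 1.96% of all probes showed in this direction. The difference was -1.57 (SE 0.31, 95% interval -2.29 to -0.85, exact permutation p = 0.0286, limma adjusted p = 0.388), so it too did not pass.

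*Pappa*, the related protease that cuts IGFBP4, read -2.50, -2.92, -3.29 and -2.32 in β-CB1R+/+ and -1.05, -2.08 and -2.52 in β-CB1R-/- mice, a difference of 0.87 (SE 0.39, adjusted p = 0.999) with overlapping groups. *Igfals*, the acid labile subunit that joins IGF and IGFBP3 or IGFBP5 in a ternary complex, read 0.15, 0.33, 0.39 and 0.17 in β-CB1R+/+ and 0.46, 1.15 and 1.64 in β-CB1R-/- mice. Every knockout was above every control, by a mean of 0.82 (SE 0.28, exact permutation p = 0.0286, limma adjusted p = 0.999). Of the further binding proteins *Igfbp6*, named after its values were seen, differed by 0.86 (SE 0.67) and *Igfbp1*, likewise, by -0.37 (SE 0.60), both with overlapping groups. *Igfbpl1* and *Stc1* stood above background on 0 arrays and were not compared.

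**Figure D3:**
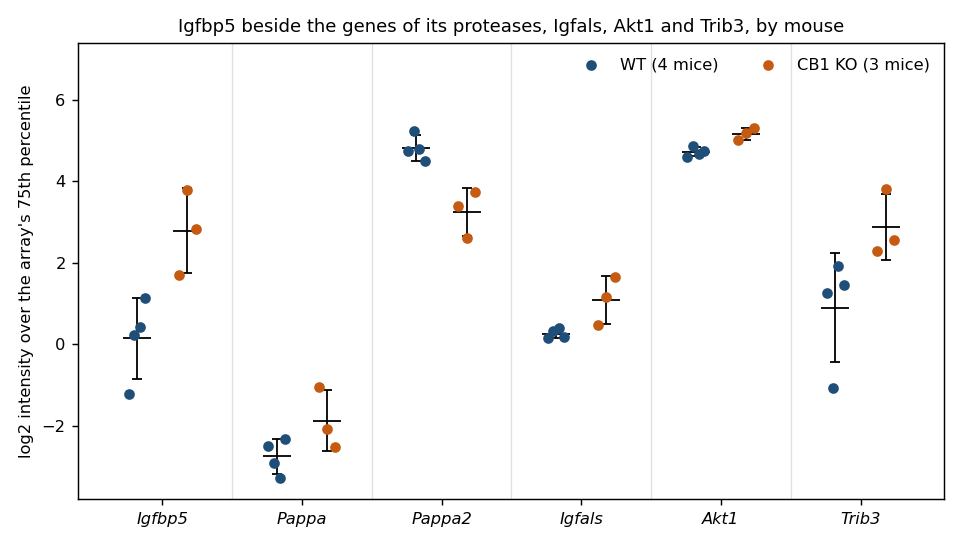
Each point is 1 mouse (blue WT, β-CB1R+/+; orange CB1 KO, β-CB1R-/-), with the mean and SD, for *Igfbp5*, the protease genes *Pappa* and *Pappa2*, *Igfals*, *Akt1* and *Trib3*; the y axis is the log2 intensity over the array's 75th percentile, not comparable between genes. The genotypes do not overlap for *Igfbp5*, *Igfals*, *Akt1* and *Trib3*, which are higher in CB1 KO, and for *Pappa2*, which is lower. *Igfals* and *Akt1* were picked after their values were seen. Of the 71 other pathway genes compared, 4 did not overlap, beside 819 of all 16951 named genes compared.

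Below the receptors, the PI3K-AKT-FOXO chain had 15 compared genes, 7 higher and 8 lower, with a median of -0.03 and none past the adjusted threshold. *Akt1*, the central kinase, read 4.60, 4.87, 4.68 and 4.75 in β-CB1R+/+ and 4.999, 5.18 and 5.30 in β-CB1R-/- mice. The groups did not overlap, although the difference was small at 0.44 (SE 0.18, exact permutation p = 0.0286, limma adjusted p = 0.999). The widest differences of the chain were those of *Pik3cd*, a catalytic PI3K subunit, at 0.51 (SE 0.31) and of the transcription factor *Foxo3* at 0.46 (SE 0.54), both with overlapping groups.

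The 14 genes of the mTOR chain had 9 higher, 5 lower and a median of 0.08. *Eif4ebp1*, which restrains translation until mTOR phosphorylates it, had the widest difference at 0.57 (SE 0.50), followed by the mTOR inhibitor *Deptor* at 0.37 (SE 0.22). The MAPK chain had 9 compared genes, with 4 higher, 5 lower and a median of -0.01, and its widest were *Braf* at -0.24 (SE 0.24) and *Mapk3* at 0.17 (SE 0.25). The 8 further adaptors had 2 higher and 6 lower. Of these *Irs4* differed by 0.54 (SE 0.48) and *Gab1* by -0.42 (SE 0.26). Of the IGF mRNA binding proteins *Igf2bp2* could be compared, at 0.01 (SE 0.27), and *Igf2bp1* and *Igf2bp3* could not.

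Among 11 brakes on the pathway 5 were higher and 6 lower. *Trib3*, a pseudokinase that binds AKT and is a known target of the stress response, read 1.26, -1.08, 1.91 and 1.46 in β-CB1R+/+ and 2.28, 3.80 and 2.56 in β-CB1R-/- mice, a difference of 1.99 (SE 0.72, exact permutation p = 0.0571, limma adjusted p = 0.999) with no overlap. *Socs3*, a cytokine-induced inhibitor that also acts on IRS proteins, differed by -0.62 (SE 1.04). It was high in β-CB1R+/+ replicates 3 and 4 and β-CB1R-/- replicate 2 (3.34 to 4.91) against 0.74 to 1.66 in the other mice, and the same 3 mice had high *Fos* (5.34 to 6.31 against -1.59 to 0.75), the immediate-early gene that dissection and isolation are known to induce. Over the 9 lists, 71 of 76 genes were compared, 37 higher and 34 lower, with a median of 0.01, 0 past the adjusted threshold in limma and 4 (*Pappa2*, *Igfals*, *Akt1* and *Trib3*) at an unadjusted p of 0.05. That is near the share of all named genes compared, 662 of 16951, and of all probes (3.59%). The same 4 were the genes of these lists without overlap between the groups, beside 819 of the 16951.

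**Figure D4:**
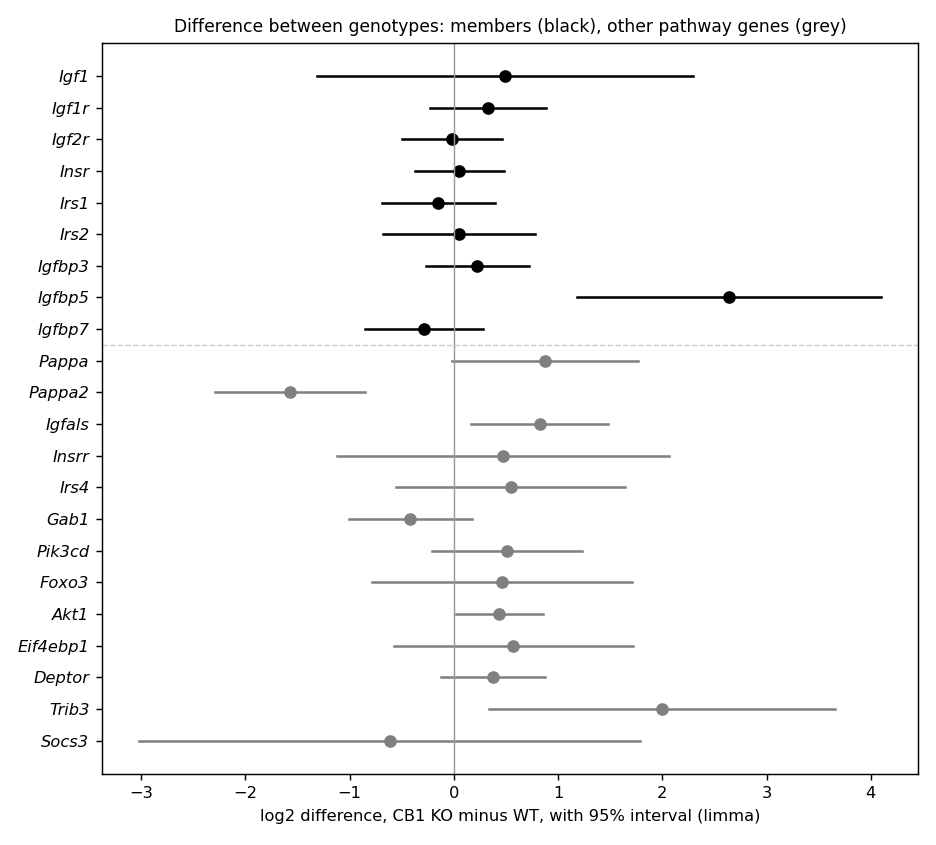
Points are log2 differences, CB1 KO (β-CB1R-/-) minus WT (β-CB1R+/+), and lines their 95% intervals from limma, for the 9 compared members (black) and for other pathway genes named in the text (grey). The interval of *Igf1* runs from -1.32 to 2.30, the widest of the members, and that of *Igfbp5* lies between 1.18 and 4.10.

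*Igf1* is also a classic target of growth hormone, and the MIP-Cre/ERT construct is known to carry a human growth hormone gene segment, so 9 genes of growth hormone and lactogen response were read in the same mice. Of these 5 were higher and 4 lower in β-CB1R-/- islets. The groups did not overlap for 5 of the 9, in both directions, beside 819 of all 16951 named genes compared. The mean level of the list ran from 0.90 to 1.34 in β-CB1R+/+ and from 2.19 to 3.06 in β-CB1R-/- mice. That level includes *Tph1*, whose controls were mostly near background, and the list was chosen with earlier results known, so it is a description. *Tph1*, which makes serotonin in beta cells under lactogens, read -4.82, -3.55, -5.61 and -3.38 in β-CB1R+/+ and 4.15, 2.49 and 5.39 in β-CB1R-/- mice (limma adjusted p = 0.0142), and was well above background in every knockout and in 1 control. It entered the comparison through the knockouts, and 3 of its control values are those of a signal near background, so its call is given as a description of these mice. The call was lost with the replicate number as a block, without β-CB1R-/- replicate 2 and under the methods' *t* test, where 0 of all probes passed. *Socs2*, a feedback inhibitor, read 1.20, 0.13, 0.68 and 0.68 and then 1.71, 2.52 and 2.56, a difference of 1.59 (SE 0.32, adjusted p = 0.406) with no overlap. *Cish*, of the same family, differed by 2.00 (SE 0.80, adjusted p = 0.999) with overlap. The receptor gene *Ghr* was lower in every knockout (3.44 to 3.64) than in every control (3.82 to 3.89), with a difference of -0.27 (SE 0.17, adjusted p = 0.999).

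*Igf1* did not order the mice as *Tph1* did. β-CB1R-/- replicate 3 had the highest *Tph1* and *Socs2* of all mice and the lowest *Igf1* of the knockouts. *Igfbp5*, like *Tph1* and *Socs2*, was higher in every knockout than in every control, but its highest mouse was β-CB1R-/- replicate 2, the lowest knockout for *Tph1*. No relation among these genes was tested.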

How the data were processed

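Islet RNA of 4 β-CB1R+/+ and 3 β-CB1R-/- mice was labelled with Cy3. The authors deposited spot intensities from Feature Extraction 11.5.1.1, background subtracted and detrended within each array but not scaled between arrays, and a Z score per spot, which matched the standardised log10 intensity of its array to within 0.00503. The array file header names another build than the RefSeq table (GRCm38.p6), so the table gave symbols only: 28026 of 55681 probes matched. Spots flagged as non-uniform or outliers were left out, intensities put on the log2 scale relative to each array's 75th percentile of 59305 non-control spots, spots of a probe averaged, and repeat arrays averaged. No spot was saturated. The number of arrays limits the precision.

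Probes were compared with limma 3.58.1 in R 4.3.3 (lmFit, eBayes, two-sided, Benjamini-Hochberg over 39162 probes, threshold 0.05). Exact permutation tests used the 35 regroupings of 7 mice. Tests were checked on simulated data. The members are set by name, and they and the lists were proposed with earlier results of these data known. Named were all members with every probe, the 2 widest differences and any gene past the threshold in each list, the 5 genes most like *Igf1*, *Cnr1* and *Fos*; *Igfals*, *Akt1*, *Socs2*, *Ghr*, *Ptf1a*, *Bhlha15*, *Cpb1*, *Ctrb1*, *Cpa1*, *Igfbp1*, *Igfbp6* and *Wnt5b* were named after their values were seen. Alternatives were normexp, quantile, Z score and deposited Z score scaling, 2 filters on dim probes, either repeat array alone, the mouse as a random block (with a correlation of 0.75 within the mouse), an intensity trend, the replicate number as a block, the methods' *t* test, each mouse left out and, added after the data were seen, the acinar level as a covariate.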

Additional observations from a re-analysis of the deposited data

Results flagged for a closer look

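In 25 groups of 4 mice, 1 value lay far from its group, where chance at 1 in 20 would give 1.25. The dimmest *Igf1* probe, A_55_P2031636, read -4.36 in β-CB1R+/+ replicate 2, while the other 3 controls lay between -2.94 and -2.87. This probe was well above background in 4 of the 7 mice. The other *Igf1* probes were lowest in the same control, which also had the lowest acinar marker level.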

How the results depend on the processing

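No member probe passed the adjusted threshold under any alternative. At an unadjusted p of 0.05 *Igfbp5* passed under each, and *Igf1r* under normexp and without β-CB1R-/- replicate 1. The sign was kept in all 20 alternatives for *Igf1r*, *Irs1*, *Igfbp3*, *Igfbp5* and *Igfbp7*, although with a mouse left out *Igf1r* ran from 0.15 to 0.55, *Irs1* from -0.37 to -0.0035, *Igfbp3* from 0.14 to 0.32 and *Igfbp7* from -0.42 (without β-CB1R+/+ replicate 1) to -0.16 (without β-CB1R+/+ replicate 2). Under normexp *Igf1r* was 0.82. *Igf1* ran from -0.14 without β-CB1R+/+ replicate 2 to 1.19 without β-CB1R-/- replicate 3. *Igf2r*, at -0.02, turned to 0.013 under quantile normalisation, to 0.020 with the acinar covariate, and ran from -0.18 to 0.14 with a mouse left out, the highest without β-CB1R-/- replicate 2. *Insr* ran from -0.042, without β-CB1R-/- replicate 2, to 0.17 and *Irs2* from -0.17, without the same mouse, to 0.29 with a mouse left out. The replicate block gave -0.10 for *Irs2*. The causes were not tested. Over all probes the 43 calls became 23 without a filter on dim probes, 24 with a filter on all 8 arrays, 23 with the acinar covariate (2236 at an unadjusted p of 0.05), and 0 to 42 with a mouse left out, 0 being without β-CB1R-/- replicate 2 (limma, 785 unadjusted). The replicate block in limma gave 0 (1714 unadjusted), and the methods' *t* test 0 (1412 unadjusted). The replicate numbers did not pair the mice: deviations of same-numbered mice correlated at 0.42, -0.27 and -0.06. Levels at background, as for *Igf2*, have no order on these arrays.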

Other observations

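The markers of the islet's own cells were read on the same scale, and none of the endocrine lists held a call. Over all named genes compared, 9441 of 16951 were lower in β-CB1R-/- islets. Of 10 beta cell markers 9 were lower, with a median of -0.17, led by the glucose transporter *Slc2a2* (-0.74, SE 0.42) and the zinc transporter *Slc30a8* (-0.64, SE 0.30). Of 6 alpha cell markers 5 were lower, with a median of -0.67, led by *Irx1* (-0.999, SE 0.37) and *Ttr* (-0.83, SE 0.24), and 3 of the 6 had an unadjusted p under 0.05, beside 662 of all 16951 named genes compared. *Ttr*, the thyroid hormone carrier transthyretin, lay between 6.06 and 6.40 in β-CB1R-/- and between 6.59 and 7.42 in β-CB1R+/+ mice. Of 4 delta and PP cell markers 3 were lower, with *Sst* at -0.53 (SE 0.25) and *Ppy* at 0.54 (SE 0.61). For the mean level of each list the exact permutation p was 0.143 for beta cell, 0.0857 for alpha cell and 0.514 for delta and PP cell markers (two-sided).

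Of 12 endothelial markers 5 were higher and 7 lower, and the widest were *Egfl7* at -0.57 (SE 0.49) and *Esm1* at -0.40 (SE 0.35). Of 12 stellate and fibroblast markers 8 were higher, and *Lum*, a matrix proteoglycan well above background in 5 of 7 mice, differed by 1.89 (SE 1.37) and *Col1a1*, a collagen chain, by 1.17 (SE 1.00). Of 7 duct markers 4 were higher, with *Muc1* at 0.99 (SE 0.75) and *Krt19* at 0.60 (SE 0.75). Of 10 immediate-early genes 8 were lower, with *Egr2* at 1.35 (SE 0.90) and *Fosb* at -0.88 (SE 2.37), and their mean was high (2.78 to 3.84) in 3 mice of both genotypes and low (-1.27 to -0.20) in the other 4. None of these lists held a gene past the adjusted threshold.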
